A study of Homo sapiens with 4 samples.

Results

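The genes described here are the 3 D-type cyclins (*CCND1*, *CCND2*, *CCND3*), their kinases *CDK4* and *CDK6*, and 5 inhibitors of cyclin-dependent kinases (*CDKN1A*, *CDKN1B*, *CDKN1C*, *CDKN2C*, *CDKN2D*). They are 10 of the 51136 genes in the deposited table and were listed by name for their role in the cell cycle. Earlier results of these data were known when they were chosen. RNA-seq was made from A549 cells, a human lung adenocarcinoma line, with 2 libraries a group. Control cells were transfected with a control small interfering RNA (si-control, genotype WT in the labels). The others received small interfering RNA against the homeobox gene *DLX6* (si-DLX6, genotype DLX6 knockdown). The si-DLX6 column headers (HR99SEQ1_Si and HR99SEQ2_Si) do not say whether both libraries received the same small interfering RNA. All 4 samples carry a further label of adipogenic differentiation, which neither the titles nor the transfection protocol mention. The study set cells with *DLX6* knockdown against control cells. Libraries held 9678221 to 12075285 reads, as worked out from the deposited values, and levels are in FPKM, reads scaled to gene length and library size, a scale on which genes of different length can be compared. Separate cultures for the libraries within a group are not mentioned in the labels, so p-values measure the spread between these libraries only, which may be technical.

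D-type cyclins link growth signals to the cell cycle. They bind CDK4 or CDK6, and the active pair phosphorylates the retinoblastoma protein, which then lets go of E2F transcription factors and with them the genes of DNA replication. INK4 inhibitors (p16, p15, p18 and p19, from *CDKN2A* to *CDKN2D*) bind the kinase and keep cyclin D away, while CIP/KIP inhibitors (p21, p27 and p57, from *CDKN1A* to *CDKN1C*) bind whole cyclin-kinase complexes, block CDK2 and also help cyclin D to assemble with CDK4. Much of this control acts on the proteins, which RNA-seq does not measure.

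The libraries did not show several features for which A549 cells are known. Of 9 markers of this line, *KRT8*, *KRT18* and *NQO1* were at 1 FPKM or more in all 4 libraries. *KRT19*, *EPCAM*, *CDH1*, *AKR1B10* and *ALDH1A1* stayed under 1 FPKM in all 4, and *AKR1C1* ranged from 0.240 to 1.496 FPKM, although the aldo-keto reductases and *ALDH1A1* are known to be abundant in A549. A549 cells are also known to lack *CDKN2A* and its chromosome 9 neighbour *MTAP* through a homozygous deletion. Here *CDKN2A* gave 418 to 616 reads and *MTAP* 363 to 745 reads in each library. The name A549 is therefore used below as the labels give it. Of 7 adipocyte markers all were under 1 FPKM in each library and 3 (*ADIPOQ*, *LEP*, *LPL*) were at 0, of 7 fibroblast markers all were under 1 FPKM and *LUM* was at 0, and of 5 leukocyte markers all were under 1 FPKM with *PTPRC*, *CD3E* and *LYZ* at 0. Summed fibroblast markers were at 0.283 and 0.358 FPKM with si-control and 0.759 and 0.835 FPKM with si-DLX6. That difference lay mainly in *COL1A1* (8 and 6 reads against 29 and 24) and *PDGFRB* (2 and 5 against 14 and 9). The other fibroblast markers had at most 5 reads a library. Summed adipocyte markers were at 0.124 and 0.109 FPKM against 0.328 and 0.0280 FPKM, and leukocyte markers at 0.505 and 0.356 against 0.448 and 0.458 FPKM. The part of such cells in the results was not tested. *DLX6* itself was at 3.27 and 3.47 FPKM with si-control and at 0.916 and 0.450 FPKM with si-DLX6, the direction its labels give. These levels rested on 74 and 63 reads against 18 and 9 reads. The log2 fold change was −1.39 (SE 0.20, limma adjusted p = 0.00859). *DLX6* met the filter used below (1 FPKM in at least 2 libraries) only through the si-control libraries.

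In these cells *CDK4* was by far the most abundant of the 10 transcripts, and the main differences with si-DLX6 lay in one cyclin and one kinase. *CCND1* rose about 1.56-fold and *CDK6* fell to 0.468 of its si-control level. Those were the 2 calls among the 8 genes that passed the filter of 1 FPKM in at least 2 libraries, against 19.6% of all 15504 genes tested (limma on log2(FPKM + 1), Benjamini-Hochberg adjusted p under 0.05). By direction, 10.2% of all tested genes were called higher and 9.49% lower, so the called genes were 51.7% higher ones, and 37.3% or 67.3% under median-of-ratios or upper-quartile scaling. The median log2 fold change of the 8 was 0.070 and that of all tested genes 0.045, while the median size of the change, without its sign, was 0.32 and 0.28. In 7 of the 8 the groups of libraries did not overlap, which was also true of 63% of all tested genes. *CCND2* and *CDKN1C* did not pass the filter. In bulk RNA, a change in every cell and a change in the share of cells that express a gene, or in RNA per cell, cannot be told apart.

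**Figure D1:**
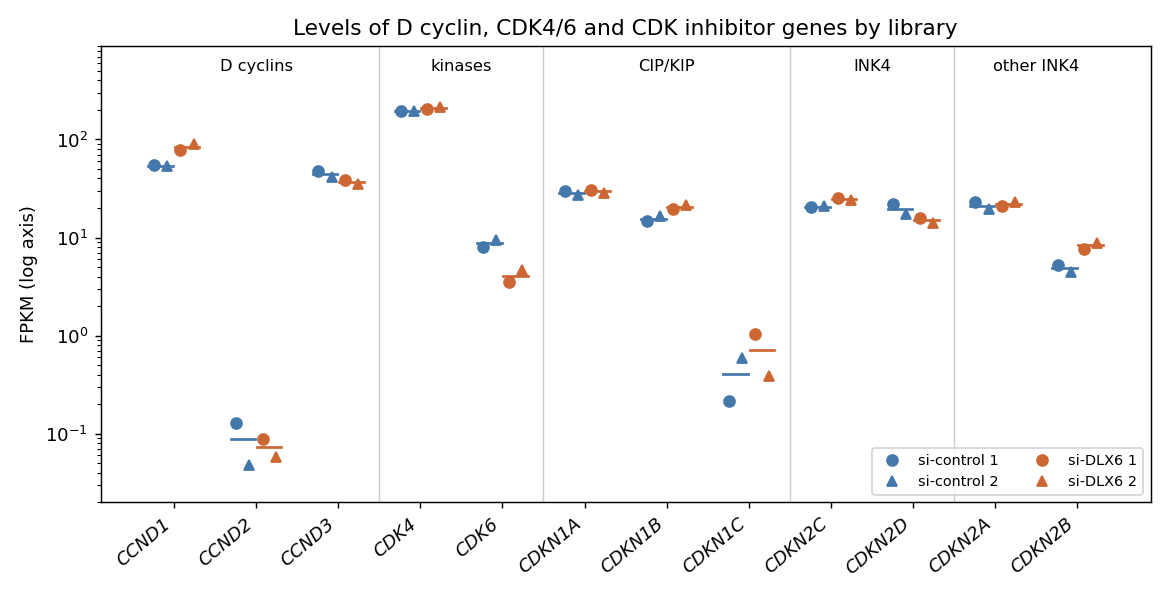
FPKM (log axis) of the 10 genes and of the other INK4 genes *CDKN2A* and *CDKN2B* in each library, with horizontal lines at the group means (n = 2). *CDK4* lies between 194.6 and 212.1 FPKM, *CDK6* lies lower in both si-DLX6 libraries than in both si-control libraries, and *CCND1* lies higher.

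Start-site sequences of the 2 kinases are shown because *CDK4* and *CDK6*, which share their cyclins and inhibitors, differed widely in level and in response. Each is the 120 bases just before a RefSeq start (GRCh38.p14), read 5′ to 3′ on the gene's minus strand. Capitals mark a GC box (GGGCGG or its reverse complement CCGCCC) or an E-box (CACGTG), the latter the DNA word that MYC and MAX are known to bind. The stretches are chr12:57752311-57752430 for *CDK4* and chr7:92836574-92836693 for *CDK6*, the outer of its 2 listed starts.
CDK4: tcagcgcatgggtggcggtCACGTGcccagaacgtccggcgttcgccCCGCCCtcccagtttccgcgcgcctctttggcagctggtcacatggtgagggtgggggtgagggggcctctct
CDK6: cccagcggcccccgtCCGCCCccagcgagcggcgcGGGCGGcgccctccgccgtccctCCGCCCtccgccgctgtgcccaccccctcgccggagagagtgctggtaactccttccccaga
Over the full window of the table (250 bases before the start and 50 after it), the *CDK4* promoter held 3 E-boxes and 3 GC boxes, and this *CDK6* promoter 1 E-box and 3 GC boxes. The inner *CDK6* start had no match to any of the 6 words searched. Both strands were searched in the 12 promoters listed for 7 of the 10 genes. No promoter of *CCND1*, *CCND2* or *CDKN1C* was listed, so the counts do not cover these genes. Of the 12 promoters, 9 held a GC box and 4 an E-box, against 45.0% and 7.26% of all 35116 promoters in the table. A gene with several listed starts counts several times, as *CDKN2C* does for the E-box. The GC content of the 12 ran from 46.3% to 78%, and the median of all promoters was 58.7%. The CCAAT box (CCAAT) was in 5 of 12 (34.6% of all), an E2F word (GGCGGGA, which shares bases with a GC box where they overlap) in 3 of 12 (15.4% of all), and the TATA box (TATAAA) and the AP-1 word (TGANTCA) in 0 of 12 (11.5% and 7.71% of all). These matches describe the letters of the windows only.

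*CCND1* encodes cyclin D1, the D cyclin that many growth factor pathways induce and that is often overexpressed in carcinomas (chromosome 11, 69641087 to 69654474, plus strand, GENCODE release 29, GRCh38). It was at 54.5 and 53.1 FPKM with si-control and at 78.1 and 90.1 FPKM with si-DLX6. Both si-DLX6 libraries lay above both si-control libraries, and the gap between the si-DLX6 libraries was wider than that between the controls. The means were 53.8 ± 1.03 and 84.1 ± 8.53 FPKM (SD, n = 2 each), and the log2 fold change was 0.63 (SE 0.11, 95% interval 0.37 to 0.89, limma adjusted p = 0.0135). Reads per library total came to 156% of si-control (exact 95% interval 151% to 162%, counting error only), from 5027 and 7632 reads. The call held without each library in turn (limma adjusted p from 0.0191 to 0.0481), and was lost when no filter on low genes was applied (0.0677).

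Cyclin D3, from *CCND3*, is the D cyclin best known from lymphoid cells but made in many tissues (chromosome 6, 41934933 to 42050357, minus strand). Its transcript was at 47.3 and 41.6 FPKM with si-control and at 38.2 and 34.8 FPKM with si-DLX6. The si-DLX6 libraries were the lower pair without overlap, at 81.6% of si-control reads (76.9% to 86.5%, counting error only), but the difference did not pass the test (log2 fold change −0.28, SE 0.11, limma adjusted p = 0.132). *CCND2*, for cyclin D2 (chromosome 12, 4273772 to 4305350, plus strand), was close to undetected, with 10 and 3 reads in the controls and 6 and 4 reads after knockdown. Its reads were 79.1% of si-control with an exact 95% interval of 31.1% to 195%, so neither a rise nor a fall was detectable at this depth.

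The shares of *CCND1* and *CCND3* among D cyclin transcripts did not overlap between the groups. This follows from the levels above, where *CCND1* was higher and *CCND3* lower without overlap, and adds no separate result. The fall of *CCND3* itself did not pass the test. With *CCND2* close to undetected, each share is nearly fixed by the other. Together the 3 genes were at 102 and 94.7 FPKM with si-control and at 116 and 125 FPKM with si-DLX6. *CCND1* made up 53.5% and 56.0% of that sum in the controls and 67.1% and 72.1% after knockdown. *CCND3* made up 46.4% and 43.9% against 32.8% and 27.9%. The ratio of *CCND1* to *CCND3* went from 1.153 and 1.28 in the si-control libraries to 2.04 and 2.59 in the si-DLX6 libraries. These ratios do not depend on how libraries were scaled to each other. The ratios are given without a test. With 2 libraries a group an exact permutation test cannot give a p under 0.333.

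*CDK6* encodes the kinase that shares its cyclins with CDK4 (chromosome 7, 92604921 to 92836594, minus strand). It was at 8.08 and 9.34 FPKM with si-control and at 3.504 and 4.64 FPKM with si-DLX6. Both si-DLX6 libraries were below both si-control libraries by more than the gap within either group. The means were 8.71 ± 0.890 and 4.07 ± 0.804 FPKM (SD, n = 2 each), and the log2 fold change was −0.94 (SE 0.17, 95% interval −1.35 to −0.53, limma adjusted p = 0.0157). Its gene model is long, at 11841 bases, so this low FPKM still rested on 1155 and 1070 against 435 and 586 reads, or 47.2% of si-control (43.8% to 50.8%, counting error only). The size of this change exceeded that of 94.9% of tested genes, against 84.9% for *CCND1*. The call was lost without si-control library 2 (limma adjusted p = 0.0671) and with no filter (0.0792), with log2 fold changes of −0.85 and −0.94.

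*CDK4* (chromosome 12, 57747727 to 57756013, minus strand) showed little difference. It was at 194.6 and 195.9 FPKM with si-control and at 204.8 and 212.1 FPKM with si-DLX6, rank 402 by mean level among the tested genes. The si-DLX6 libraries were slightly higher without overlap. The log2 fold change was 0.09 (SE 0.09, limma adjusted p = 0.517), and its 95% interval of −0.13 to 0.32 corresponds to levels of 0.913 to 1.25 times si-control on the log2(FPKM + 1) scale. Under median-of-ratios scaling the difference was 0.00060. *CDK4* overlaps *TSPAN31* on the opposite strand, for which 129 and 110 reads were recovered in the controls and 204 and 197 after knockdown, against 3795 to 4704 a library for *CDK4*. It also overlaps the opposite-strand gene *MARCH9*, with 111 to 166 reads a library, and the sources used here do not say whether counting used strand. *CCND1* likewise overlaps *LTO1* and *CDK6* overlaps *AC002454.1*, both on the opposite strand.

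The summed level of the kinases was 203 and 205 FPKM with si-control and 208 and 217 FPKM with si-DLX6. *CDK6* made up 3.99% and 4.55% of it in the controls and 1.68% and 2.14% after knockdown. The ratio of *CDK4* to *CDK6* FPKM was 24.1 and 20.98 in the controls and 58.5 and 45.7 after knockdown.

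**Figure D2:**
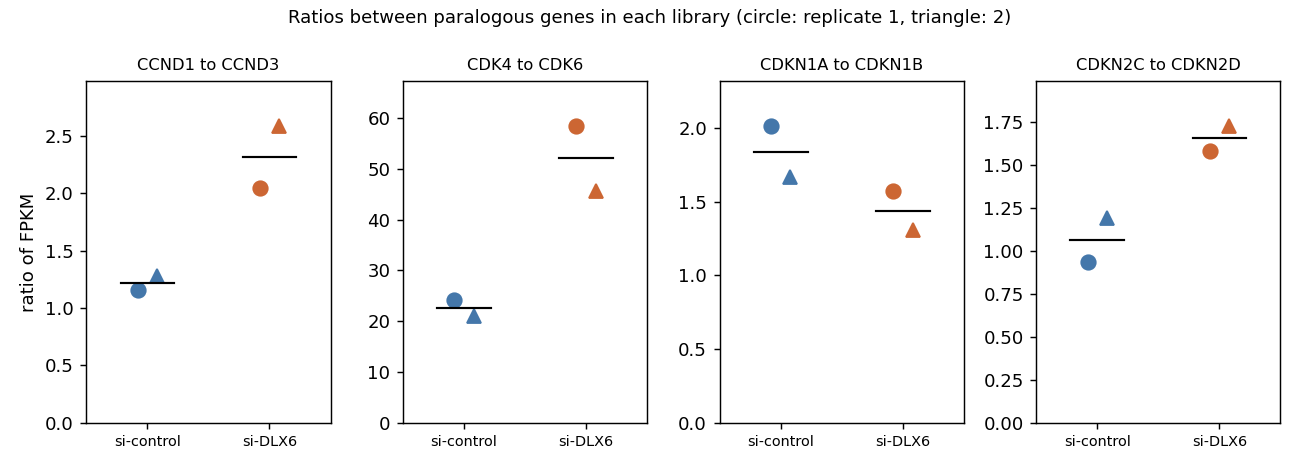
Ratio of FPKM between members of each gene pair in each library (circles replicate 1, triangles replicate 2), with lines at the group means and all axes from 0. *CCND1* to *CCND3*, *CDK4* to *CDK6* and *CDKN2C* to *CDKN2D* are higher in both si-DLX6 libraries, and *CDKN1A* to *CDKN1B* is lower.

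Of the CIP/KIP inhibitors, *CDKN1A* overlapped between the groups and *CDKN1B* was somewhat higher without passing the test. *CDKN1A*, the p21 gene, known for its rise in damaged and arrested cells (chromosome 6, 36676460 to 36687339, plus strand), was at 29.8 and 27.3 FPKM with si-control and at 30.9 and 28.1 FPKM with si-DLX6. The groups overlapped. Its log2 fold change was 0.05 (SE 0.11, limma adjusted p = 0.799), with a 95% interval of −0.22 to 0.31 that allows 0.861 to 1.24 times the si-control level. The sign turned under median-of-ratios scaling (−0.044), without si-control library 2 (−0.015) and without si-DLX6 library 1 (−0.019).

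*CDKN1B*, the gene of p27, an inhibitor that is high in resting cells and is controlled largely by protein breakdown (chromosome 12, 12715058 to 12722371, plus strand), was at 14.8 and 16.4 FPKM with si-control and at 19.7 and 21.5 FPKM with si-DLX6. All si-DLX6 values lay above the si-control values. The log2 fold change was 0.38 (SE 0.12, 95% interval 0.10 to 0.66), with a limma adjusted p of 0.0664. By limma *CDKN1B* passed at 0.0337 under upper-quartile scaling, at 0.0479 with a filter of 5 FPKM and at 0.0224 with the replicate number as a block. In the other 8 of the 11 alternatives it did not pass. Among these were median-of-ratios scaling (limma adjusted p = 0.114), no filter (0.125) and a pseudocount of 0.1 FPKM (0.0703). By limma-voom its adjusted p was 0.0567. With each library left out in turn the log2 fold change ranged from 0.31 to 0.45. *CDKN1C*, the imprinted p57 gene (chromosome 11, 2883213 to 2885773, minus strand), had 5 and 11 reads in the controls against 21 and 8 after knockdown, and the groups overlapped. At 186% of si-control reads with an exact interval of 98.0% to 367%, a difference was not detectable at this depth. The summed CIP/KIP transcripts were at 44.8 and 44.2 FPKM with si-control and at 51.6 and 50.02 FPKM with si-DLX6. The ratio of *CDKN1A* to *CDKN1B* was 2.02 and 1.66 in the controls and 1.57 and 1.31 after knockdown.

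The INK4 members *CDKN2C* and *CDKN2D* lay on opposite sides of 0, and neither passed the test. *CDKN2C*, for p18 (chromosome 1, 50960745 to 50974633, plus strand), was at 20.3 and 20.8 FPKM with si-control and at 25.2 and 24.2 FPKM with si-DLX6. Its libraries did not overlap between groups (log2 fold change 0.25, SE 0.10, limma adjusted p = 0.130). *CDKN2D*, for p19 (chromosome 19, 10566462 to 10569059, minus strand), was at 21.7 and 17.5 FPKM with si-control and at 15.95 and 14.0 FPKM with si-DLX6. The si-DLX6 libraries were lower, but the si-control libraries differed from each other by more than the nearest libraries of the groups did (log2 fold change −0.36, SE 0.14, limma adjusted p = 0.122). The sum of both was 42.0 and 38.3 FPKM against 41.2 and 38.2 FPKM, whereas the ratio of *CDKN2C* to *CDKN2D* was 0.935 and 1.19 in the controls and 1.58 and 1.73 after knockdown.

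The other INK4 genes were read as well. *CDKN2A*, for p16 and, in another frame, ARF (chromosome 9, 21967753 to 21995301, minus strand), was at 22.9 and 19.4 FPKM with si-control and at 21.2 and 23.0 FPKM with si-DLX6. The groups overlapped (log2 fold change 0.06, SE 0.12, limma adjusted p = 0.761, 95% interval −0.24 to 0.36). Its difference was −0.028 under median-of-ratios scaling and −0.052 without si-control library 2. Its level was like that of *CDKN2C* and *CDKN2D*. *CDKN2B*, for p15, an inhibitor that TGF-beta is known to induce (22002903 to 22009363 on the same strand), was at 5.22 and 4.46 FPKM with si-control and at 7.71 and 8.87 FPKM with si-DLX6. It rose, with a log2 fold change of 0.67 (SE 0.15, limma adjusted p = 0.0283). With any single library left out the adjusted p lay above 0.05 (0.0564 to 0.125), and with no filter it was 0.0906. The antisense gene *CDKN2B-AS1* overlaps both and had 24 to 38 reads a library. All 4 INK4 genes together were at 70.2 and 62.2 FPKM with si-control and at 70.0 and 70.1 FPKM with si-DLX6.

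**Figure D3:**
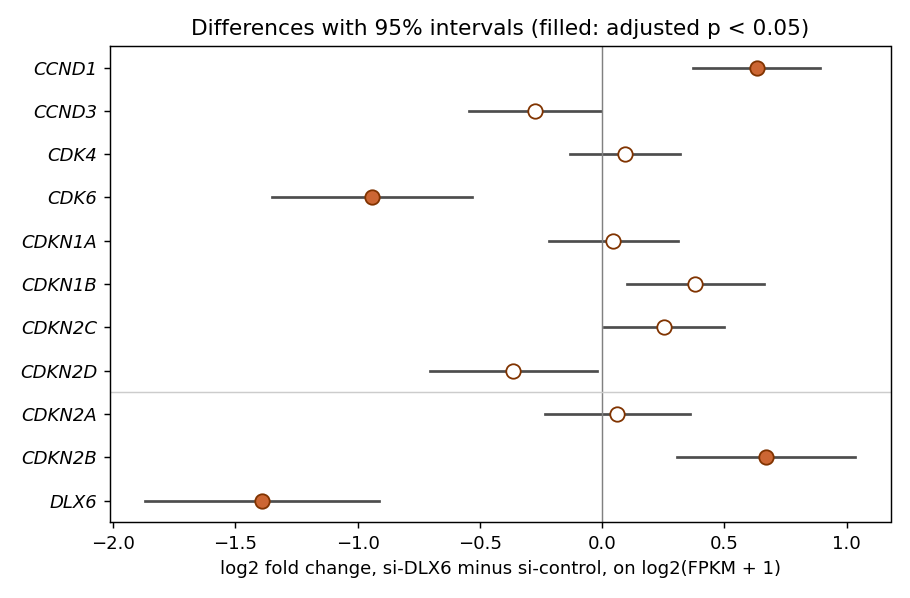
Log2 fold change (si-DLX6 minus si-control, on log2(FPKM + 1)) with 95% interval from limma for the 8 tested genes, *CDKN2A*, *CDKN2B* and the targeted gene *DLX6*. Filled points passed an adjusted p of 0.05, which *CCND1* and *CDKN2B* did on the side of a rise and *CDK6* and *DLX6* on the side of a fall.

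Ordered by level in the si-control libraries, *CDK4* came first, followed by *CCND1*, *CCND3*, *CDKN1A*, *CDKN2C* and *CDKN2D*, *CDKN1B*, *CDK6*, *CDKN1C* and *CCND2*. *CDKN2C* and *CDKN2D* overlapped there and cannot be put in order. Every other pair of neighbours in the order was apart in both si-control libraries, though *CDKN1C* and *CCND2* rested on at most 11 reads there. With si-DLX6 *CDKN2C* stood above *CDKN1B* and *CDKN1B* above *CDKN2D* in both libraries, and the other genes kept their places.

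Other genes of the pathway were counted in 7 lists of 116 gene names, against the same 19.6% of all genes called. Because the lists were chosen with earlier results of these data known, their counts are not independent of the data. Downstream, of 22 RB-E2F target genes 14 fell and 0 rose, with a median log2 fold change of −0.59. The smallest p-values belonged to the helicase subunits *MCM2* (−0.92), *MCM7* (−0.86) and *MCM5* (−0.80) and the polymerase clamp *PCNA* (−0.94). With no filter 4 of the list fell. Of 14 genes of the pocket proteins and the DREAM and MuvB complex, 1 fell, the repressor E2F *E2F4* (from 77.2 to 46.6 FPKM, −0.72), and 0 rose. The pocket proteins *RBL1* (−0.54, limma adjusted p = 0.0793) and *RBL2* (0.42, 0.111) and the subunit *LIN37* (0.24, 0.152) came next and did not pass, and limma-voom called 2 of the list, both lower.

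Among the genes for assembly and activation of the kinases, 2 of 10 fell and 0 rose. These were the HSP90 co-chaperone *FKBP4* (−0.99) and *CDK7* (from 43.9 to 27.7 FPKM, −0.65), the kinase that phosphorylates other cyclin-dependent kinases on their activation loop. Its cyclin *CCNH* (−0.30, limma adjusted p = 0.131) and the chaperone *HSP90AB1* (−0.43, 0.0568) did not pass. Leaving out si-control library 2 or si-DLX6 library 2 left 1 call, while limma-voom called 4 lower. Of 19 genes for the turnover of cyclin D, p21 and p27, 3 fell and 0 rose, namely the ubiquitin ligase parts *CUL4A* (−0.50), *RBX1* (−0.42) and *RNF123* (−0.51), the last a ligase of p27. The ligase *UBR4* was at 0.41 (limma adjusted p = 0.0752). These 3 calls were fragile: 0 genes were called without si-control library 1 or without si-control library 2, 1 without si-DLX6 library 1 or 2, and 0 with no filter. Under upper-quartile scaling all falls were lost and 1 gene was called higher, while limma-voom called 3 higher and 4 lower.

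Of 16 other cyclin-dependent kinases tested, 0 were called with limma, with a median log2 fold change of 0.016. An unadjusted p under 0.05 was found for 3 of them, against 36.1% of all tested genes. *CDK1* (−0.57, limma adjusted p = 0.0661), *CDK2* (−0.32, 0.0891), *CDK14* (0.53, 0.0937) and *CDK10* (0.28, 0.169) had the smallest p-values. By limma-voom 1 was called higher and 1 lower, and 1 was called lower without si-control library 1 or without si-DLX6 library 2. Median-of-ratios scaling also called 1 lower, and upper-quartile scaling 1 higher. Of 20 other cyclins 3 rose and 4 fell. The S and M phase cyclin *CCNA2* (from 38.2 to 19.1 FPKM, −0.96), the ubiquitin ligase cyclin *CCNF* (−0.95) and *CCNA1* (−1.23), best known from the male germ line, led the falls, and *CCNL2* (0.47), a cyclin of splicing kinases, was the first of the rises. Leaving out si-control library 1, si-control library 2 or si-DLX6 library 2 left 3 falls and 0 rises, and with no filter 1 fall was left. Median-of-ratios scaling gave 1 rise and 4 falls.

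Upstream, 4 of 18 transcription factors known to act on D cyclin or inhibitor genes rose and 2 fell. *MYC*, a known activator of *CDK4* and repressor of *CDKN1A* and *CDKN2B*, fell, with means of 101 ± 4.80 FPKM in the controls and 62.4 ± 0.950 FPKM after knockdown (SD, n = 2 each), and a log2 fold change of −0.69 (SE 0.09, limma adjusted p = 0.00801). *EGR1* (1.26), *KLF4* (0.74) and *ZBTB17* (0.70), the partner through which MYC represses inhibitor genes, rose. With si-control library 2 left out, or with no filter, 1 of the list rose and 1 fell, and with any of the other libraries left out 2 rose and 1 fell.

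**Figure D4:**
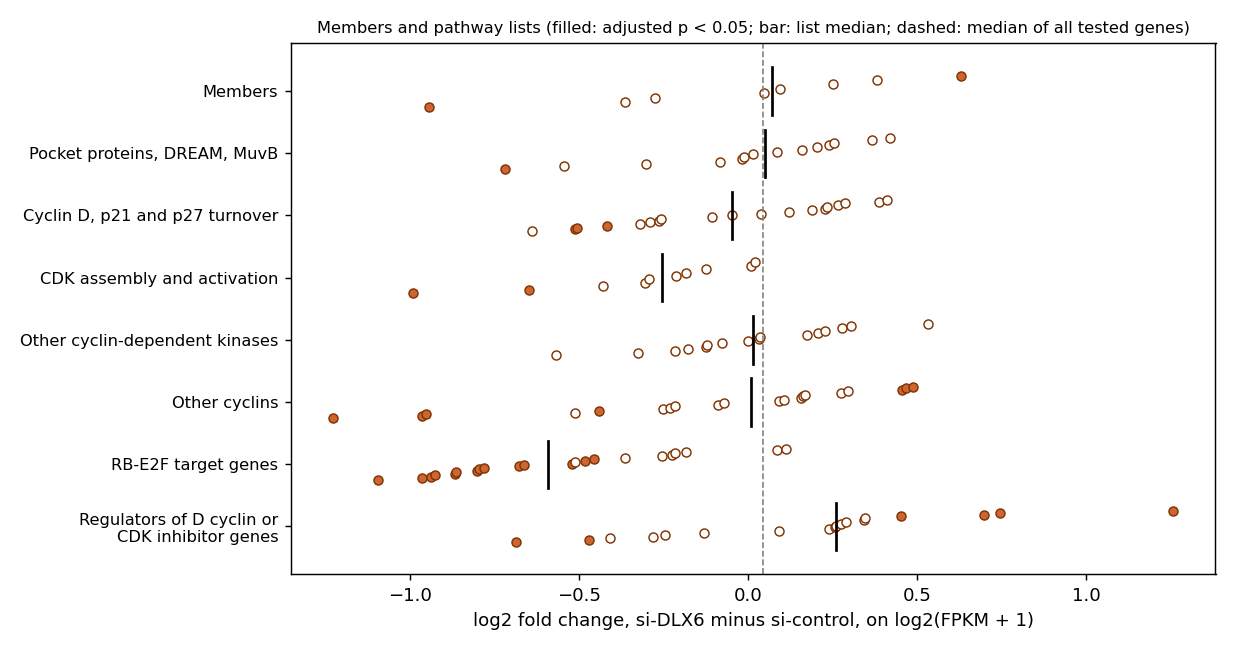
Log2 fold changes (si-DLX6 minus si-control, on log2(FPKM + 1)) of every tested gene in the D cyclin, kinase and inhibitor set (Members) and in 7 pathway lists, with the list median as a bar and the median of all tested genes dashed. Filled points passed an adjusted p of 0.05, 14 of 22 in the list of RB-E2F targets, all on the side of a fall, and 2 of 8 among the members.

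By pattern over the 4 libraries, the 3 genes nearest to *CCND1*, among those with a mean of at least 10 FPKM over all 4 libraries, were *FAM111A*, *SH3BP5* and *RSRP1*, at distances of 0.040, 0.040 and 0.053 on the centred log2 scale among 6282 genes. *FAM111A* and *SH3BP5* were under 10 FPKM in both si-control libraries, so they met that mean only through the si-DLX6 libraries. Those nearest to *CDK6* were *LIAS*, *ZFAND1* and *DIMT1*, at 0.039, 0.069 and 0.090 among 6283 genes. *LIAS* was at 8.71 and 10.87 FPKM with si-DLX6, so it met that mean mainly through the si-control libraries (18.0 and 21.3 FPKM). Likeness over 4 libraries describes these libraries only.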

How the data were processed

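Per the labels' protocols, libraries were made from total RNA with a SMARTER mRNA-Seq kit. The authors deposited 1 table of 51136 rows with a value column per library. Its header names no unit, and the deposited values were taken as FPKM, since the values of each gene are whole multiples of a step set by gene length and library total. The aligner, the counter and their versions were not stated in the sources. The submitters' processing notes list GRCm38 and mm10, a mouse build, while the table holds human symbols, so no coordinates were taken from it. Positions come from GENCODE release 29 by symbol, and promoters from RefSeq.

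Reads were recovered from the steps for all 28637 genes above 0, within 0.001 reads, with totals set by 9 mitochondrial genes of known length, of which 8 gave the same total, and gene lengths required to be whole (1497 genes were multiplied for this). A factor shared by all reads of a gene can still be lost.

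The design allowed for FPKM. limma-trend (limma 3.58.1, R 4.3.3) was run on log2(FPKM + 1) for 15504 genes (1 FPKM or more in 2 or more libraries), with group as the only term. Fold changes on this scale understate those of low genes. The script was tested on simulated data. Members and lists were chosen with earlier results of these data known. A few genes and a list are not reported here. Named were the members, *DLX6*, *CDKN2A*, *CDKN2B*, up to 4 genes a list by smallest p, and 3 genes nearest in pattern to the called member with the largest rise and the largest fall. *MTAP* and overlapping genes were added after their values were seen.

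Alternatives were 2 other scalings, a pseudocount of 0.1 FPKM, no filter, a filter of 5 FPKM, the replicate block, leaving out each library, and limma-voom on recovered reads.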

Additional observations from a re-analysis of the deposited data

How the results depend on the processing

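Without a filter 372 genes were called (167 higher, 205 lower), and 0 of the members. An unadjusted p under 0.05 was found for 4 members, and the share of all genes at that threshold was not counted there. *DLX6* kept its log2 fold change of −1.39 at a limma adjusted p of 0.0667. That fit had 28637 genes in place of 15504. At an unadjusted p under 0.05, 6 of the 8 tested members and 5598 genes (36.1% of all tested) passed in the main analysis. The replicate numbers are not said to pair libraries. Deviations of same-numbered libraries from their group means correlated at r = 0.20 over the tested genes. With the replicate number as a block 5119 genes and 5 members were called, adding *CCND3* (limma adjusted p = 0.0357), *CDKN1B* (0.0224) and *CDKN2D* (0.0299). Leaving out each library in turn gave 1365 to 1689 genes and 1 to 2 members, the lone one being *CCND1*. Reversals were those of *CDKN1A* (−0.044 under median-of-ratios scaling, −0.015 without si-control 2, −0.019 without si-DLX6 1, up to 0.11 with another library left out) and *CDKN2A* (−0.028 and −0.052, the first and second of these settings, up to 0.18). *CCND1* kept its direction in all 11 alternatives (0.53 to 0.73) and its call in 10, *CDK6* its direction in 11 (−1.10 to −0.78) and its call in 9. A filter of 5 FPKM removes *DLX6*. Why calls changed was not tested. Depth limits *CCND2* and *CDKN1C*, with at most 21 reads a library.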
